A study of Lathyrus oleraceus with 4 samples.

Results

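Ribosomal proteins S2 and S3 belong to the small subunit of the ribosome, and their transcripts were followed here in the shoot apical meristem (SAM) of garden pea. Each was measured by 1 probe, C0386 for S2 and C0304 for S3, out of 2234 probes on a CombiMatrix oligonucleotide array. Both probes derive from clones of the standard SAM cDNA library, which supplied 290 of the probes. They were picked by name from the transcripts that the study lists as higher in the SAM, so the SAM against non-meristem (NM) values of the same arrays chose them. Those values are therefore given as a description and without a test. Both were measured on all 4 arrays, and no filter removed either.

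SAMs were micro-dissected without leaf primordia from 10-day-old greenhouse plants of the cultivar Torsdag, with many apices pooled for each RNA extraction. NM RNA came from primary stem, mature leaf and primary root of the same collection. All plants were untreated. Each of the 4 arrays, called sectors, held the SAM and NM RNA of 1 of 4 independent tissue collections, with SAM in Cy3 on sectors 1 and 3 and in Cy5 on sectors 2 and 4. Since the NM sample is a mixture of organs, a ratio says nothing about stem, leaf or root alone. In bulk tissue, more cells that express a gene and more RNA per cell cannot be told apart.

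In eukaryotes the small (40S) subunit binds the mRNA and reads its codons, whereas the large (60S) subunit joins the amino acids. In ribosome structures from yeast, S2 and S3 lie beside each other where the mRNA enters the small subunit. Growing and dividing cells have to build new ribosomes, which takes stoichiometric amounts of all ribosomal proteins. Chloroplasts carry a separate ribosome of bacterial type, with a 30S small subunit whose proteins have similar names.

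The study ties these annotations to EX accessions (EX569048 for S2 and EX568954 for S3), while the arrays carry clone names. The 230 EX accessions of its lists were therefore tied to clones by the ratio and adjusted p-value given for each, which led to C0386 and C0304 and to the other ribosomal transcripts below. This link rests on values of the same arrays. The annotation of S2 reads eukaryotic and archaeal. That of S3 names a match in the legume Medicago truncatula without a cell compartment, and S3 is grouped with the 40S proteins on that basis. A short oligonucleotide probe may also bind transcripts of close copies of either gene, and no probe sequence or genome position was used here.

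The dye behind each of the numbered channels is not stated in the tables. Channel 1 was taken to be Cy5, a reading under which all 129 GenBank-named probes of the study's lists take the listed direction, against 0 of 129 in the other order. If the channels ran in the order in which the labels list the dyes, every sign below would turn. Under the reading used, 10 of 10 transcripts of green tissue (chlorophyll-binding proteins, photosystem subunits, rubisco and its activase) were called lower in the SAM, with log2 ratios from -3.75 to -1.35. Their summed intensity lay between 4340 and 21800 in the SAM and between 21300 and 96100 in the NM, and none was at 0 in either. The 4 transcripts of dividing cells (3 of proliferating cell nuclear antigen and 1 cyclin D) were called higher, from 0.88 to 2.00, with summed intensities between 2310 and 15300 in the SAM and between 1110 and 2250 in the NM. For the lowest of them, EX570270, the study also prints a larger fold change than in the list that tied it to a clone. A YABBY transcript, of a family known from young lateral organs in Arabidopsis, had a log2 ratio of 0.65, although primordia were left out of the dissection. These markers are themselves drawn from the study's lists. They moved with the same contrast as S2 and S3, and their part in the S2 and S3 values was not tested.

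The S2 probe gave more signal with SAM than with NM RNA on every array, before any normalization. Its SAM and NM intensities were 1344 and 550 on sector 1 and 466 and 391 on sector 2, then 3062 and 643 on sector 3 and 4471 and 710 on sector 4. These raw NM values differed less between arrays than the raw SAM values, which also holds the brightness of each channel. Relative to the median probe of its channel, S2 ran from 2.74 to 5.65 in the SAM and from 0.984 to 2.12 in the NM. The lowest SAM value of S2, on sector 2, lay below the NM values of the other 3 arrays. The comparison therefore has to be made within each array.

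For S3, the corresponding intensities were 2017 and 956 on sector 1, 987 and 634 on sector 2, 4050 and 711 on sector 3, and 8987 and 896 on sector 4. Every SAM value of S3 exceeded every NM value, although the SAM value of sector 2 was close to the NM value of sector 1. The brightest blank spot of the same array and channel lay well below both probes throughout. S2 was between 8.8 and 35 times that blank in the SAM channel and between 4.89 and 12.2 times in the NM channel. For S3 these ranges were 18.6 to 51.8 and 7.07 to 21.1.

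**Figure D1:**
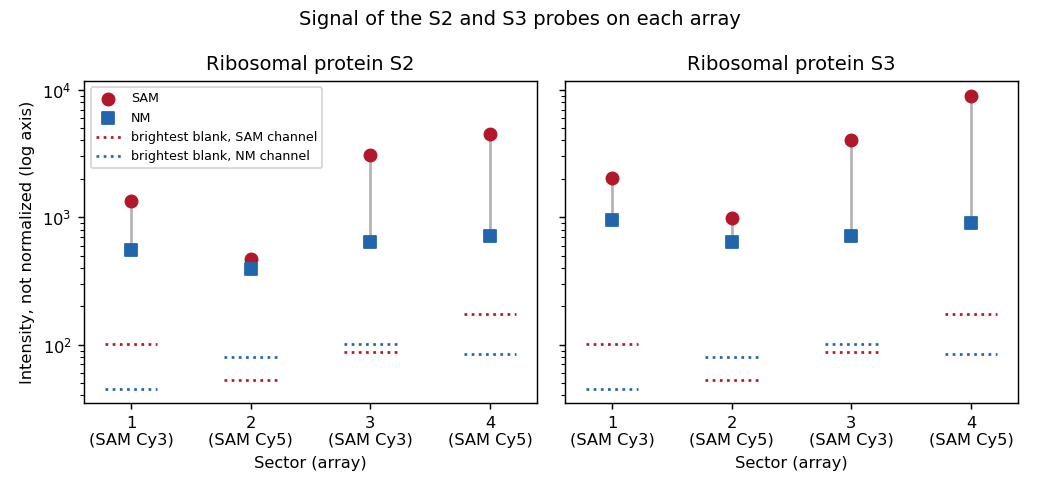
Intensity of the S2 probe (left) and the S3 probe (right) on each of the 4 arrays, on a log axis and not normalized. Red circles are SAM RNA and blue squares NM RNA of the same collection, joined by a grey line, and dotted lines mark the brightest blank spot of each channel. The SAM value is above the NM value on each array, by the least on sector 2 for both probes.

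Part of this signal is a property of whole arrays. The median log2 SAM/NM intensity of all probes ranged from -1.18 to 0.86 between arrays. It was removed, together with its dependence on brightness, by a robust spline fitted to each array. The curve took 0.21, -0.98, 0.62 and 1.22 from the raw log2 ratio of S2 on sectors 1 to 4, and -0.03, -0.71, 0.57 and 1.38 from that of S3. On sector 2 the raw log2 ratio of S2 was only 0.25, and the normalized value of 1.23 there owes most of its size to the correction.

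After normalization, the log2 SAM/NM ratio of S2 on sectors 1 to 4 was 1.07, 1.23, 1.63 and 1.43. The mean was 1.34 ± 0.24 (SD, n = 4 arrays), a 2.54-fold higher signal in the SAM with a standard error of 0.11 on the log2 scale from limma. All 4 values lay above 1. Their order between arrays changed with the processing.

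The log2 ratio of S3 on sectors 1 to 4 was 1.11, 1.35, 1.94 and 1.95. Its mean of 1.58 ± 0.43 (SD, n = 4 arrays) corresponds to a 3.00-fold higher signal in the SAM, with a standard error of 0.16. Sectors 3 and 4 were close to each other here and stood above sectors 1 and 2. Across all probes the median SD was 0.20. With the spline S3 thus varied between arrays more than a typical probe, and S2 about as much. When scaling between arrays was added, the SD was 0.25 for S3 and 0.17 for S2. Collection and array cannot be told apart here.

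By the limits of the study (a ratio above 1.3 or below 0.7, together with an adjusted p of less than 0.05 from limma), both probes count among the 218 of 2234 probes, 9.76%, that were called higher in the SAM. A further 164 probes, 7.34%, were called lower. When the GenBank-named probes alone set the normalization curve, 79.2% of all calls were higher ones, against 57.1% here. Because S2 and S3 were chosen on this contrast, nothing is read from their calls. Among all probes, 43 had a higher mean log2 ratio than S2 and 31 a higher one than S3. Of the 290 probes of the standard library, from which S2 and S3 come, 73 or 25.2% were called higher, and the log2 ratio had a median of 0.08 over that library.

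S2 and S3 were compared with each other within each array. The log2 ratio of S3 exceeded that of S2 by 0.03, 0.11, 0.31 and 0.51 on sectors 1 to 4. The mean difference was 0.24 ± 0.22 (SD, n = 4 arrays), about as large as its own spread between the arrays. The sign on sector 1 turned with other processing: S3 and S2 had 1.08 and 1.29 there without normalization, 0.29 and 0.50 with arrays centred at their medians, 1.15 and 1.16 with blanks subtracted, and 1.19 and 1.24 with normexp. With normexp S3 was also below S2 on sector 2, at 1.60 against 1.72. On sectors 3 and 4 S3 was above S2 under each of the 10 other settings described below. As these are separate probes that were both chosen on the contrast, the difference was not tested. With the spline both had their lowest ratio on sector 1. Without normalization that was sector 2 for both, and in the deposited ratios it was sector 4 for S2.

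The dye effect does not enter the mean ratio, because SAM was in Cy5 on 2 arrays and in Cy3 on the other 2. It does add to the spread between arrays, so a choice by adjusted p favours probes with a small one, and the values below are not independent of the choice. When a dye coefficient was fitted beside the tissue, S2 had a log2 Cy5 over Cy3 effect of -0.01 with a 95% interval from -0.27 to 0.26 in limma. The effect of S3 was 0.06 with an interval from -0.34 to 0.46. Only 5 probes, 0.224%, passed an adjusted p of 0.05 for the dye, and neither S2 nor S3 was among them. With arrays centred at their medians, the dye effect was 0.28 for S2 and 0.53 for S3. Both spots lie in the same column of the array. The 38 other probes of that column had median log2 ratios between -0.13 and -0.09 on the 4 arrays.

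**Figure D2:**
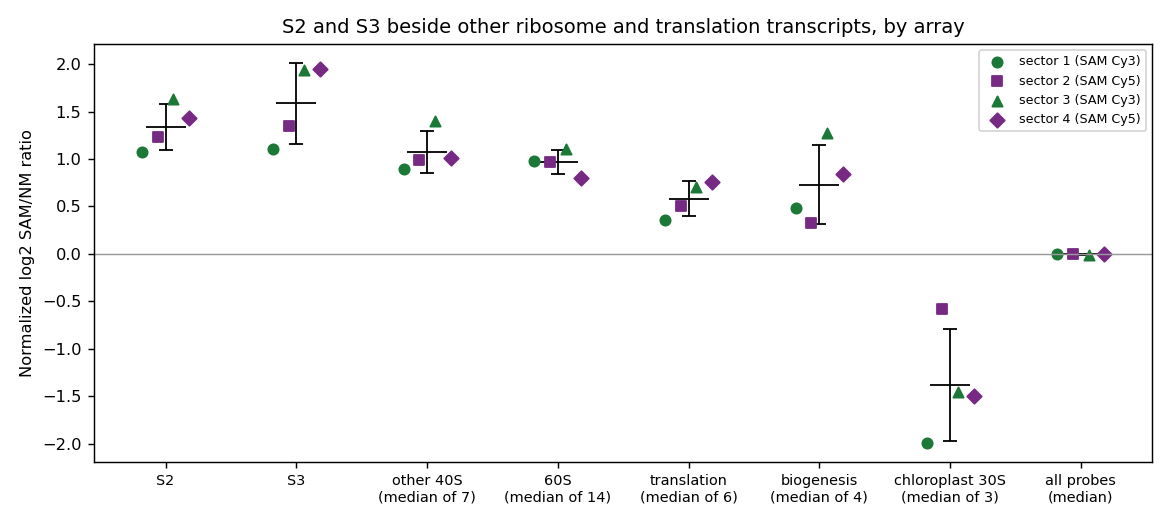
Normalized log2 SAM/NM ratio of S2 and S3 on each array (markers), beside the per-array medians of the other 40S, 60S, translation, ribosome biogenesis and chloroplast ribosomal transcripts and of all probes. Bars are the mean and SD of the 4 plotted values. S2 and S3 lie between 1.07 and 1.95 on every array, whereas the chloroplast 30S median lies between -1.99 and -0.58.

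Other ribosomal transcripts were taken from the annotations of the study's lists, which hold only transcripts that it selected as changed on these arrays. Their calls and directions are therefore fixed by the choice, and only sizes are described. Annotations that give no compartment were grouped with the cytosolic ribosome. The 7 other small-subunit transcripts, all called higher, ran from 0.55 to 1.58 in their log2 ratio, and their median was 1.02 where that of all probes was 0.00. With the spline S3 and an S15-like protein (EX568908) shared the highest mean of the 9. Only these and S4 (EX568887), at 1.53, were then above S2. This order depended on the processing. With the curve drawn through the GenBank-named probes, S2 had 1.64 and the median of the 7 others was 1.65.

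With the spline S4 was close to S3 on every array, with 1.06, 1.33, 1.94 and 1.78 on sectors 1 to 4. S17 (EX568861) was likewise close to S2, with 1.06, 1.13, 1.51 and 1.26. Both are among the nearest probes ranked below, which also include histone transcripts. S18 (EX569956), a protein of the subunit's head, had a mean of 1.02 ± 0.27 (SD, n = 4 arrays). The remaining members had lower means. S5 (EX569685), which lines the mRNA exit side in yeast ribosomes, had 0.71 ± 0.20, S27 (EX570516) 0.68 ± 0.24 and S19 (EX569377) 0.55 ± 0.26 (SD, n = 4 each). Within this small-subunit group, which leaves out EX570400, the transcripts thus spread from a 1.46-fold to a 3.00-fold higher signal. With the spline the lowest array value of S2 was 1.07, and the highest values of S5, S27 and S19 were 0.89, 1.01 and 0.82. S2 was chosen on this contrast, so nothing is read from this gap. With arrays centred at their medians S2 fell to 0.50 on sector 1, and S5, S27 and S19 were not examined there. With the spline sector 1 was the lowest array for 6 of the 9 small-subunit transcripts, and sector 3 the highest for 5. Among the 14 large-subunit transcripts these counts were 3 and 7. The share over all probes was not counted.

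The 14 large-subunit transcripts, all called higher, lay between 0.45 and 1.54 in their mean log2 ratio, with 0.99 as the median. At the top stood a 60S protein without a number (EX568904) with 1.54 ± 0.13 (SD, n = 4 arrays) and L17 (EX568984) with 1.35 ± 0.38. At the lower end were L3 (EX570019), which reaches towards the centre where peptide bonds are made, with 0.54 ± 0.31, and L35 (EX568687) with 0.45 ± 0.08. With the spline the mean of S2 was above those of 12 of these 14 and that of S3 above all 14. AB021873, a ribosome-sedimenting protein, had 1.61 ± 0.31 (SD, n = 4), the only ribosomal transcript of the groups with a higher mean than S3. EX570400, left out of the groups, also had a higher ratio than S3 in the fit of the deposited ratios.

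The 3 transcripts annotated as chloroplast 30S proteins went the other way. Their median log2 ratio was -1.39, with 2 of 3 called lower. The chloroplast S12 transcript (EX569834) had -1.99, -0.61, -1.46 and -1.50 on sectors 1 to 4. The chloroplast S18 transcript (EX569905) had -2.43, -0.58, -3.02 and -1.98, and so varied far more between arrays than S2 or S3. The chloroplast S17 transcript (EX568989) had a mean of -0.48 ± 0.30 (SD, n = 4 arrays) and a ratio of 0.715, just outside the limit. These 12 array values lay apart from those of S2 and S3, which the choice from a lower and a higher list fixed in advance. The names S17 and S18 each occur once among the cytosolic and once among the chloroplast transcripts.

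**Figure D3:**
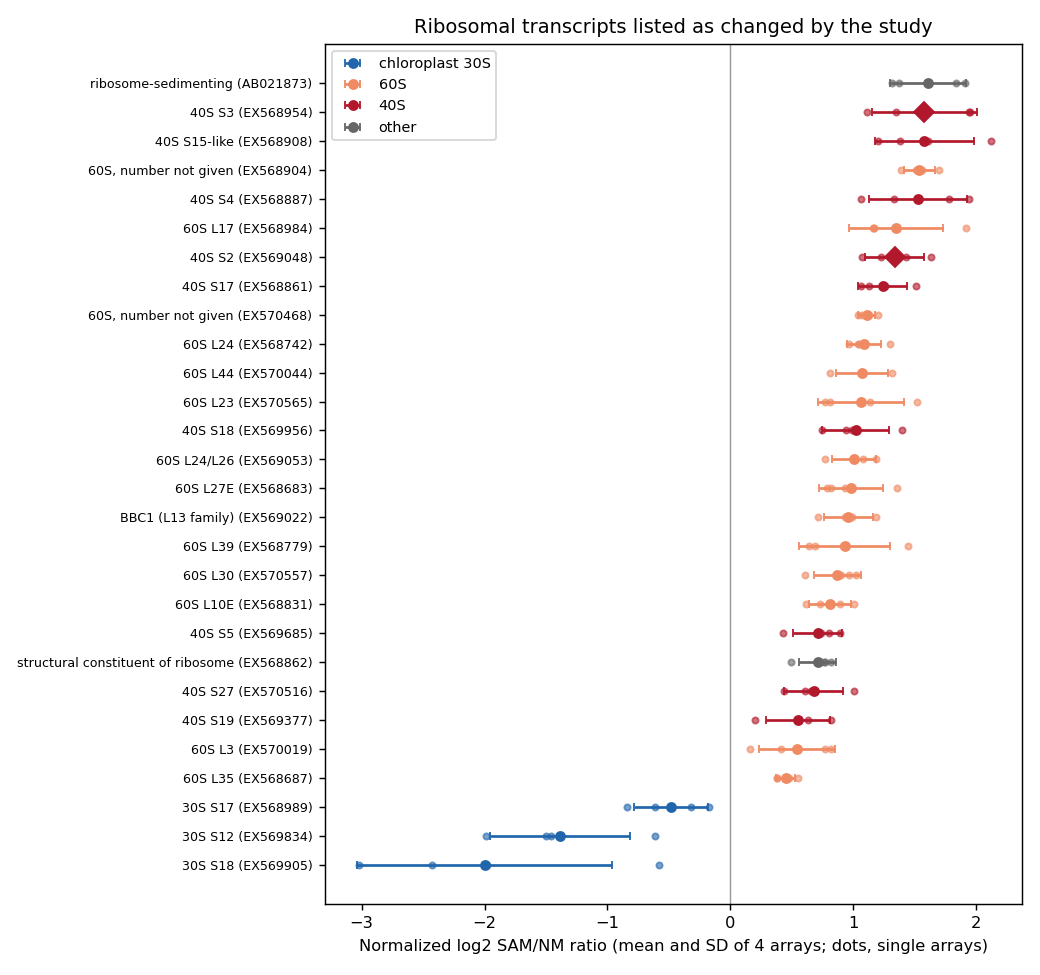
Mean normalized log2 SAM/NM ratio with its SD over 4 arrays (large markers and bars) and the value of each array (small dots). Shown are 28 ribosomal transcripts of the study's lists, without EX570400 and EX570594. S2 and S3 are the diamonds, at 1.34 and 1.58. The 25 transcripts above 0 and the 3 chloroplast transcripts below 0 were listed by the study for these directions.

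Transcripts of other steps of protein synthesis had smaller ratios than S2 and S3. For the 6 translation factors and nascent chain partners, all called higher, the median log2 ratio was 0.53, with a range from 0.43 to 0.73. None of the 6 was called by limma with arrays centred at their medians (5 at an unadjusted p under 0.05) or without normalization (2 at that level), and 3 were called without sector 4. Elongation factor 1 subunit beta (EX568849), which recharges the factor that brings tRNA to the ribosome, had 0.65 ± 0.15 and initiation factor 5A (EX568710) 0.43 ± 0.28 (SD, n = 4 arrays each). Deoxyhypusine synthase (EX570053), the enzyme that modifies factor 5A, had 0.73 ± 0.43. The 2 subunits of the nascent polypeptide-associated complex, which binds chains as they leave the ribosome, had 0.54 and 0.50. With the spline, every one of these 6 means was below the lowest array value of S2. With arrays centred at their medians S2 had 0.50 on sector 1, below the median of 0.56 for the 6.

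For ribosome assembly, the 4 listed transcripts, all called higher, had a median of 0.74. With centring limma called 1 of the 4, and without normalization 0, where 3 had an unadjusted p under 0.05. Without sector 3, 2 of the 4 were called, and without sector 4, 1. Fibrillarin (EX568807), which methylates ribosomal RNA in the nucleolus, had the highest mean, 1.03 ± 0.44 (SD, n = 4 arrays). The SAR DNA-binding proteins 1 (EX571065) and 2 (EX571067) had 0.78 ± 0.58 and 0.70 ± 0.41, and SLOW WALKER 1 (EX569344), a nucleolar protein known from Arabidopsis, had 0.49 ± 0.19. With 0.06 on sector 2 and 1.41 on sector 3, the SAR DNA-binding protein 1 transcript spread over a wider range than either ribosomal protein.

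The probes whose 4 log2 ratios came nearest to those of each member were ranked by the root mean square difference over the 4 arrays. For S2 the nearest was AB021872, without an annotation in the files, at 0.09 on the log2 scale. It was followed by S17 at 0.12, a histone-fold transcript (EX570873) at 0.18, L17 at 0.21 and a hypothetical protein (EX570209) at 0.22. For S3 the nearest was S4 at 0.09, followed by a histone H2A (EX569121) at 0.13, the chromatin protein HMG-I/Y (EX570197) at 0.19, a histone H4 (EX571345) at 0.20 and the unannotated clone S0144 at 0.24. The difference between S2 and S3 was 0.30. This likeness is over 4 arrays only and describes them. Both lists mix ribosomal with histone transcripts.

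The ratios of S2 and S3 were recomputed under 10 other ways of processing all 4 arrays that keep the channel order. The mean log2 ratio of S2 lay between 1.33 and 1.64 and that of S3 between 1.56 and 1.98. How far the arrays agreed depended much more on this choice. With no normalization the values of S2 ran from 0.25 to 2.65 and those of S3 from 0.64 to 3.33. When arrays were merely centred at their medians, sector 1 gave 0.50 for S2 and 0.29 for S3, and the other arrays at least 1.43 and 1.81. In the log2 ratios that the authors deposited, S2 had 1.22, 1.41, 1.64 and 1.20 and S3 had 1.24, 1.54, 1.94 and 1.63 on sectors 1 to 4. Both members, which were chosen as higher, were above 0 on each array under every one of these settings. With the spline, 399 of all 2234 probes were above 0 on all 4 arrays.

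**Figure D4:**
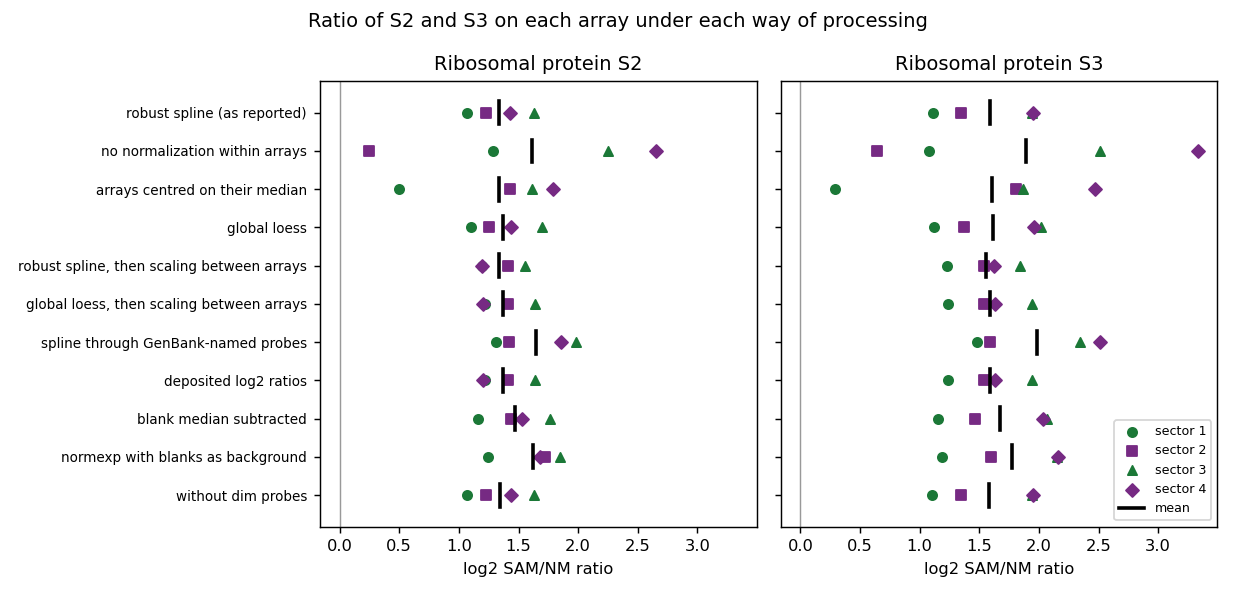
Log2 SAM/NM ratio of S2 (left) and S3 (right) on each array (markers by sector) and their mean (black bar) for the processing used here and 10 others. The means stay between 1.33 and 1.98, while the spread between arrays is widest without normalization and with median centring.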

How the data were processed

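RNA of SAM and NM was compared on 4 two-colour sectors of a chip. Of their labels, 1 carries no number and was taken as sector 1 because its SAM RNA was in Cy3, as on sectors 1 and 3, and another label carries the 3. For every spot and both channels the authors deposited an intensity before normalization, with no background column, from a GenePix scan quantified in Microarray Imager. They also deposited log2 ratios of the first over the second channel. A global loess scaled between arrays gives these to within 3.17e-08, whereas loess alone differs by up to 0.813. Their array medians lie between -0.00479 and 0.00694.

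Blank spots (6 of 2240) were left out. Log2 ratios were normalized by limma's robust spline without background subtraction and fitted by lmFit and eBayes (limma 3.58.1, R 4.3.3), with signs set by the dyes and Benjamini-Hochberg adjustment over 2234 probes. The procedure was also run on simulated arrays with known changes. These held as many rises as falls, so they cannot show how calls shift with the probes that set the curve. Nothing is read from that run. EX accessions were matched to clones at a summed relative difference of at most 5.8e-06, against at least 6.1e-04 at the next best probe. Named transcripts are both members, the ribosome and translation transcripts of the groups, EX570400 and EX570594, and the 5 nearest probes of each member. Members and lists were chosen with earlier results of these data known. The 4 collections limit the precision of every ratio.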

Additional observations from a re-analysis of the deposited data

Results flagged for a closer look

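Of 44 sets of 4 array values examined (the ribosome and translation transcripts, the medians of their groups and the difference between S3 and S2), 3 had 1 array far from the other 3, and neither S2, S3 nor their difference was among them. About 1 in 20 sets is marked by chance. L17 (EX568984) had a log2 SAM/NM ratio of 1.92 on sector 3, against 1.16 to 1.17 on the other arrays. Elongation factor 1 subunit beta (EX568849) had 0.42 on sector 1, against 0.72 to 0.74. A structural ribosomal transcript without a stated subunit (EX568862) had 0.49 on sector 2, against 0.76 to 0.82.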

How the results depend on the processing

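With each array left out in turn, the mean log2 SAM/NM ratio lay between 1.25 and 1.43 for S2 and between 1.46 and 1.74 for S3, and the difference between S3 and S2 between 0.15 and 0.31. Between 168 and 218 probes were then called higher and between 132 and 173 lower. Both members were called higher under all 15 alternatives that keep the channel order. As they were chosen for this call on the same arrays, nothing is read from that. Reading the first channel as Cy3 turns S2 to -1.34, S3 to -1.58 and the group medians to -1.02 (other small subunit), -0.99 (large subunit), 1.39 (chloroplast), -0.53 (translation) and -0.74 (assembly).

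Without normalization within arrays S2 had 1.61, the other small-subunit median was 1.28 and the large-subunit median 1.33, while the median of all probes was 0.27, and 49 probes were called higher and 31 lower. With the curve drawn through the GenBank-named probes these values were 1.64, 1.65 and 1.38, the median of all probes 0.13, and 408 were called higher and 107 lower. Centring on the array median left 128 called higher and 136 lower. With normexp and the blanks as background, S2 had 1.62, the large-subunit median was 1.12 and the chloroplast median -2.13. The cause of these shifts was not tested.

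Without normalization 2 of the 14 large-subunit and 2 of the 7 other small-subunit transcripts were called higher by limma, and with centring 10 and 5. The group values and the fits of the dye effect without single arrays or dim probes were added after seeing the data.

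The dye effect of S2 changed sign to 0.28 with centring, where that of S3 was 0.53, to 0.012 with blanks subtracted and to 0.076 with normexp, and that of S3 to -0.0015 with loess and scaling and to -0.0021 with the deposited ratios. Without single arrays it lay between -0.15 and 0.13 for S2 and between -0.15 and 0.27 for S3. No paired analysis was possible beyond the array itself because both tissues of a collection share 1 array. A filter on dim signal was passed by 2210 of the 2234 probes, both members included. The size of the ratios still depended on the blanks. With normexp S2 had 1.62 against 1.34, and S3 had 1.78 against 1.58.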
